A study of Homo sapiens with 16 samples.

Results

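ATF4 and 9 genes of the amino acid response were followed in human breast cancer cells through their RNA, their ribosome-protected footprints (RPFs) and their translational efficiency (TE), which is RPF divided by RNA. The 10 genes were ATF4, ASNS, PSAT1, PHGDH, PSPH, SHMT2, MTHFD2, SLC7A11, SLC3A2 and XPOT. They were found by matching the deposited transcripts to gene symbols, among 10799 transcripts listed for MDA-LM2 and parental cells and 8980 listed for the HNRNPC knockdown. All 10 were listed in both tables, each as the same transcript. The set was chosen by values of the knockdown, in which ASNS and XPOT were higher than in the control, so the knockdown values of these 10 genes are descriptions and carry no test. Other genes of the pathway were tested in both comparisons. That rule made no use of MDA-LM2 or parental cells.

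Ribosome profiling and RNA-seq had been carried out on 4 lines with 2 replicates of each kind of library, 16 samples in all. Parental cells were MDA-MB-231, a triple receptor negative breast cancer line that metastasises poorly, and MDA-LM2 was its derivative selected for lung metastasis. The sgControl and sgHNRNPC cells were both MDA-MB-231 cells carrying the CRISPR interference machinery, a nuclease-dead Cas9 fused to a repressor, with a control guide or with a guide against HNRNPC, an RNA-binding protein of the nucleus. The xenograft samples of the study were not analysed here. No line was given an amino acid limitation or a stress in the labels.

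The amino acid response is a branch of the integrated stress response. Uncharged tRNAs activate the kinase GCN2, phosphorylated eIF2 slows translation initiation in general, and the mRNA of the transcription factor ATF4 is then translated more, because ribosomes pass the short reading frames upstream of its coding sequence. ATF4 binds C/EBP-ATF composite elements and switches on amino acid synthesis, amino acid uptake and the charging and transport of tRNA.

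Upstream frames were also present in the annotated mRNA that the ATF4 values belong to (ENST00000337304, transcribed from the plus strand at chr22:39520564-39522683 of hg38). Its 5′ UTR had 882 bases and held 7 ATGs, where the median 5′ UTR of the 10562 listed transcripts with an annotated coding sequence had 135 bases and 2.99% of them held 7 or more. The ATGs at positions 695 and 734 of the mRNA open a shared frame of 63 and 50 codons that runs across the start of the coding sequence. Only this isoform was searched, and whether its frames are those that control ATF4 translation was not examined. Positions 873 to 900 are shown because the upstream frame ends where the coding sequence begins: the capitals are the ATG of ATF4 and, overlapping it, the TGA that ends the upstream frame.
ATF4 mRNA, start of the coding sequence: gcaccgcaacATGAccgaaatgagcttc

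Among the other 9 genes, the annotated 5′ UTR of PSPH held 6 upstream ATGs, those of ASNS, SLC7A11 and XPOT held 2 each, that of SLC3A2 held 1 and those of PSAT1, PHGDH, SHMT2 and MTHFD2 held 0. At least 1 upstream ATG was present in 40.6% of the listed transcripts. In none of these 9 did the upstream frame run into the coding sequence.

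The core letters of the C/EBP-ATF composite element, TGATGNAA on either strand, were searched in the RefSeq promoters of GRCh38.p14, from 250 bases before to 50 after each start. They occurred in 1270 of 35116 promoters (3.62%). Of the 7 genes with an entry, ATF4, ASNS, PSAT1, PHGDH, MTHFD2, SLC3A2 and XPOT, they occurred in the promoters of ASNS and SLC3A2. In ASNS they began 68 bases before the RefSeq start, in the stretch known as the nutrient-sensing response element. The listed isoform of ASNS starts further upstream, so that the same letters lie inside its mRNA and overlap its upstream ATGs, at positions 66 and 69. In SLC3A2 they lay 37 bases after an alternative start downstream of that of the listed isoform, on the strand opposite to the gene. The shorter letters CGTCA, the core of the cAMP response element, which ATF proteins also bind, were present for ATF4, ASNS, SLC3A2 and XPOT and in 24.6% of all promoters. The windows below show the element in both of these genes and in 7 others of the pathway whose RNA was higher in the knockdown, with the matching letters in capitals. A match is a match of letters and does not show that ATF4 was bound.
ASNS, chr7:97872458-97872487, minus strand: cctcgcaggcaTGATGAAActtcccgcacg
SLC3A2, chr11:62881719-62881748, minus strand: ggagcTGATGTAAggagtcctgcacattac
AARS1, chr16:70289675-70289704, plus strand: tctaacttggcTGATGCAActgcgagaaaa
IARS1, chr9:92293692-92293721, plus strand: gcgcacggaggTGATGCAAcgcgctgaaaa
GARS1, chr7:30594834-30594863, minus strand: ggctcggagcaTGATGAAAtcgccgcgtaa
TARS1, chr5:33440956-33440985, minus strand: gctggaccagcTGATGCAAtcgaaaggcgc
SLC1A5, chr19:46784893-46784922, minus strand: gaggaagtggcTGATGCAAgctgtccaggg
SLC38A1, chr12:46266502-46266531, minus strand: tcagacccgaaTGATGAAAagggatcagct
HERPUD1, chr16:56931955-56931984, minus strand: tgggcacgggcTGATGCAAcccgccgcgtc

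The values are counts per transcript that the authors had scaled between libraries of a kind. RNA values were whole multiples of a step, which gave 7517953 to 8193031 reads per RNA library of the MDA-LM2 table and 5141959 to 6164753 of the knockdown table. RPF values fell on no such step. The study's package can smooth stalling peaks in footprints before counting, and whether the RPF values went through that step is not given in the sources used here, so RPF and TE may rest on smoothed rather than plain counts, and the reads behind an RPF value are unknown. Tests were run on genes whose mean reached 10 in RNA and in RPF. These were 8393 genes of the MDA-LM2 table, all 10 of the set among them, and 4283 genes of the knockdown table with 8 of the set, since the RPF values of PHGDH and PSPH were too low. The MDA-LM2 RNA replicates stood apart from each other, their squared differences being 15.5 times what counting reads gives, against 2.46 times in parental cells. The basal markers VIM, CD44, EGFR, CAV1, AXL and MSN were listed in both tables with RNA values of at least 1637, and the luminal markers ESR1, PGR, FOXA1 and CDH1 were listed in neither. Of the other luminal markers, ERBB2 was listed in both, with RNA values of 126.7 to 812, and GATA3 in the MDA-LM2 table alone, at 8.46 to 18.6. In bulk libraries such as these, fewer cells making an RNA and less of it per cell cannot be told apart. HNRNPC RNA was 2162 and 2146 in sgControl and 1147 and 1183 in sgHNRNPC. Both knockdown libraries thus lay below both controls.

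**Figure D1:**
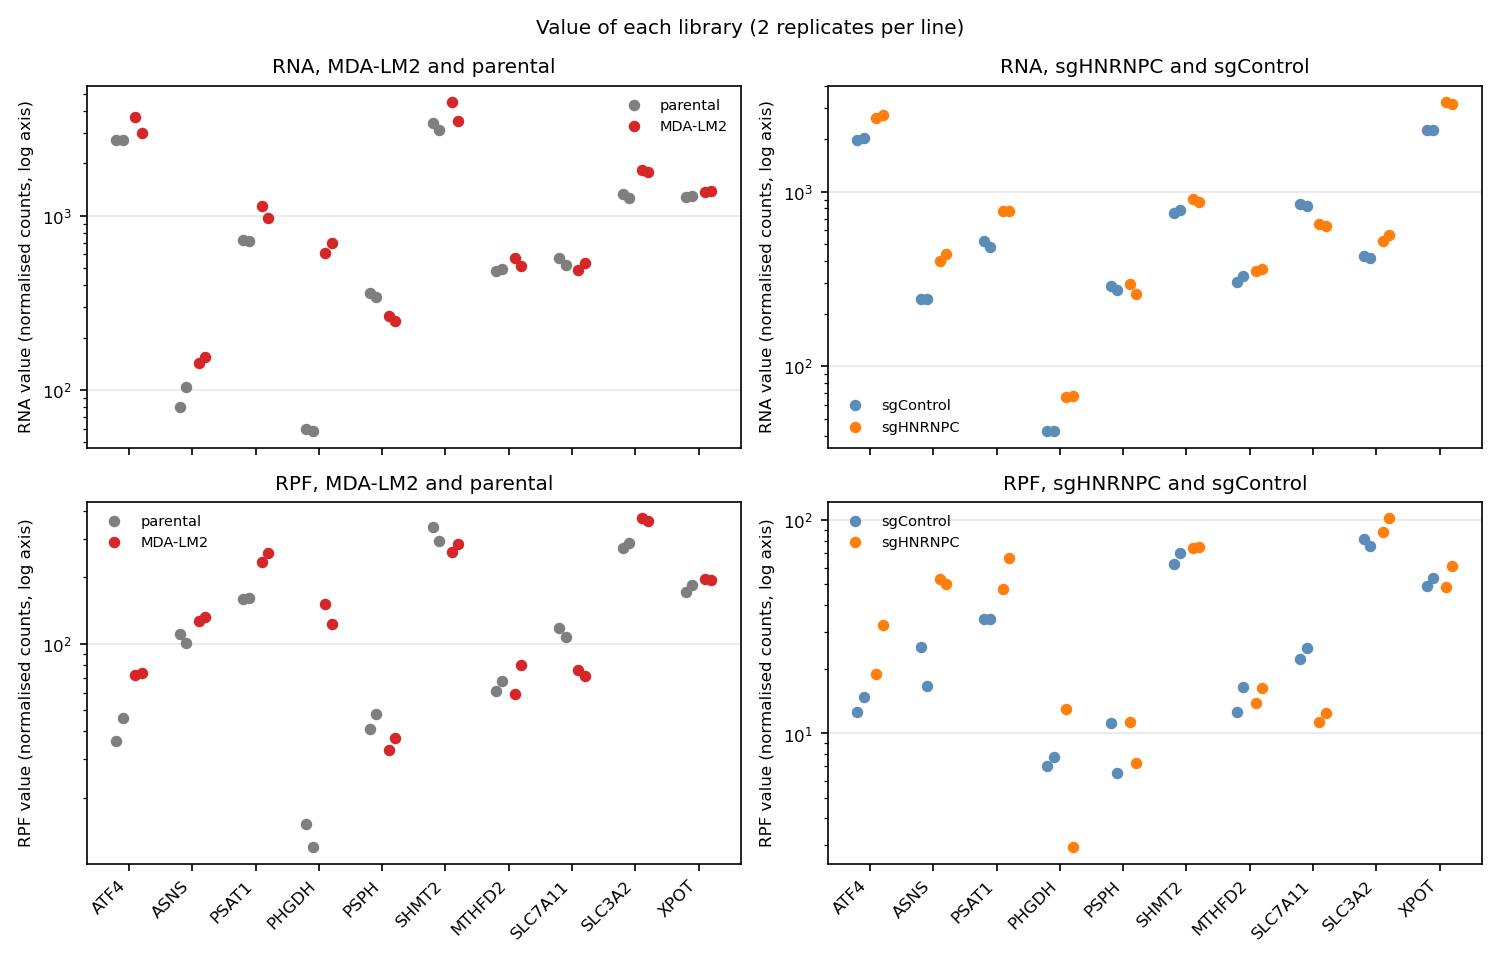
RNA (top) and RPF (bottom) values of the 10 genes in every library, in normalised counts on a log axis, for parental and MDA-LM2 cells (left) and for sgControl and sgHNRNPC cells (right), 1 point per library. PHGDH separated MDA-LM2 from parental cells most widely, and SLC7A11 lay lower in sgHNRNPC while ASNS, PSAT1 and ATF4 lay higher.

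ATF4 itself combined an abundant mRNA with few footprints. RNA was compared between genes per kb of mRNA, footprints per kb of coding sequence and TE as the ratio of these per-kb values. The RNA level per kb of ATF4 stood between the 94.3rd and the 96.6th percentile of the tested genes in all 8 RNA libraries. Its TE level per kb stood between the 0.31st and the 2.79th percentile, and was the lowest of the 10 genes in all 4 lines. In parental cells this TE level was 0.0289 ± 0.0048 (SD, n = 2), against a median of 0.254 and 0.255 over the tested genes of the 2 replicates.

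ATF4 footprints were higher in MDA-LM2 than in parental cells. The RPF values were 36.2 and 45.9 in the parental replicates and 71.9 and 73.9 in the MDA-LM2 replicates. The groups did not overlap, and the log2 RPF change was 0.83 ± 0.19 (SE, 1.77-fold, adjusted p = 0.00269, limma). The ATF4 RNA values were 2712 and 2714 in parental cells and 3671 and 3002 in MDA-LM2. They did not overlap either, but the log2 RNA change of 0.29 ± 0.13 (SE) did not pass the test (adjusted p = 0.178, limma). That call depended on the scaling. With equal totals, which shifted all genes by a median of 0.17, the RNA change was 0.46 (adjusted p = 0.0219, limma). Its size depended on the MDA-LM2 library left out, at 0.15 without replicate 1 and 0.44 without replicate 2. The log2 TE change was 0.53 ± 0.20 (SE), higher in both MDA-LM2 replicates, and did not pass (adjusted p = 0.890, limma).

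In the knockdown, which the rule used, ATF4 RNA was 1966 and 2023 in sgControl and 2646 and 2747 in sgHNRNPC, a log2 difference of 0.43 ± 0.04 (SE). Its RPF values were 12.7 and 14.9 in sgControl and 19.0 and 32.4 in sgHNRNPC, a log2 difference of 0.81 ± 0.32 (SE). The sgHNRNPC replicates differed widely in footprints. The RPF difference was 1.18 without sgHNRNPC replicate 1 and 0.44 without sgHNRNPC replicate 2.

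The serine pathway enzymes came next, since serine synthesis from a glycolytic intermediate runs through PHGDH, PSAT1 and PSPH in that order. In MDA-LM2 the RNA and footprints of PHGDH were far higher and those of PSAT1 moderately higher, while the RNA of PSPH was lower. PHGDH, the entry enzyme, had RNA values of 59.8 and 58.0 in parental cells and of 608 and 693 in MDA-LM2. The log2 RNA change was 3.44 ± 0.13 (SE, 10.9-fold, adjusted p = 4.17e-05, limma), and it ranked 5th from the top among the 8393 genes. PHGDH RPF values went from 15.2 and 11.9 to 152.1 and 122.5, a log2 RPF change of 3.25 ± 0.21 (SE, 9.52-fold, adjusted p = 7.63e-14, limma). RNA per kb of PHGDH rose from the 14.6th to 15.9th percentile of the tested genes in parental cells to the 79.0th to 83.0th in MDA-LM2. The TE values overlapped between the lines, 0.254 and 0.205 against 0.250 and 0.177.

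PSAT1, the transaminase of the pathway, had RNA values of 724 and 718 in parental cells and 1135 and 967 in MDA-LM2. The groups did not overlap, with a log2 RNA change of 0.54 ± 0.12 (SE, adjusted p = 0.0278, limma). The change was 0.54 without parental replicate 1 and 0.53 without parental replicate 2. Over all omissions of 1 replicate it ranged from 0.42 to 0.65. PSAT1 RPF values rose from 160.4 and 162.2 to 235.1 and 257.9, a log2 RPF change of 0.61 ± 0.11 (SE, adjusted p = 0.000326, limma). PSPH, the phosphatase that releases serine, went the other way in RNA, from 361 and 340 to 267 and 250.05. Its log2 RNA change of -0.44 ± 0.12 (SE) lay at the threshold (adjusted p = 0.0492, limma). It no longer passed with equal totals, where it was -0.27 (adjusted p = 0.153, limma). Without parental replicate 1 or 2 it was -0.39 and -0.48. PSPH RPF values of 40.9 and 47.9 against 32.9 and 37.5 did not overlap, and the log2 RPF change of -0.32 ± 0.22 (SE) did not pass (adjusted p = 0.376, limma). PSPH has closely related pseudogene copies, and how reads shared with such copies were assigned is not given in the sources used here, so its values are less certain.

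In the knockdown table, PSAT1 RNA was 518 and 480.2 in sgControl and 774 and 769 in sgHNRNPC, a log2 difference of 0.63 ± 0.07 (SE). PSAT1 RPF values were 34.5 and 34.5 against 47.4 and 66.7. PHGDH, below the filter, was low in both lines, with RNA values of 42.4 and 42.4 against 66.2 and 67.3. Its RPF values of 7.04 and 7.72 against 13.0 and 2.92 overlapped, as did the PSPH RNA values of 289 and 272 against 294 and 258 and its RPF values of 11.2 and 6.56 against 11.4 and 7.27.

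SHMT2 and MTHFD2, the mitochondrial enzymes that pass the one-carbon unit of serine to folate, moved little in MDA-LM2. SHMT2 RNA was 3414 and 3089 in parental cells and 4467 and 3487 in MDA-LM2, without overlap, and its log2 RNA change of 0.28 ± 0.15 (SE) did not pass (adjusted p = 0.238, limma). It passed with equal totals, at 0.45 (adjusted p = 0.0347, limma). Without 1 replicate it ranged from 0.10 to 0.46, the highest without MDA-LM2 replicate 2. SHMT2 RPF values lay lower, at 260 and 283 against 338 and 294, with a log2 RPF change of -0.21 ± 0.11 (SE, adjusted p = 0.211, limma). Its log2 TE change was -0.50 ± 0.19 (SE, adjusted p = 0.890, limma). Logistic regression, the test of the study's methods, called this TE change (-0.51, adjusted p = 3.37e-06). It counts reads as units and leaves out the spread between replicates. MTHFD2 had RNA values of 483 and 497 in parental cells and 573 and 513 in MDA-LM2, and overlapping RPF values of 61.3 and 67.8 against 59.4 and 79.9. Neither change passed (adjusted p = 0.425 for RNA and 0.794 for RPF, limma).

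In the knockdown, SHMT2 RNA was 754 and 780.3 in sgControl and 904 and 866 in sgHNRNPC, and its RPF values were 62.5 and 70.0 against 74.4 and 75.3. MTHFD2 RNA was 305 and 328 against 352 and 361, and its RPF values of 12.6 and 16.5 against 14.0 and 16.3 overlapped. The log2 RNA differences of 0.20 ± 0.06 for SHMT2 and 0.17 ± 0.09 for MTHFD2 (both SE) were the smallest positive RNA differences among the 8 genes over the filter.

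ASNS, which makes asparagine from aspartate and glutamine, was higher in RNA in both comparisons. Its RNA values were 79.7 and 103.9 in parental cells and 142.8 and 155.2 in MDA-LM2. The groups did not overlap, and the log2 RNA change was 0.70 ± 0.18 (SE, 1.63-fold, adjusted p = 0.0379, limma). With a minimum mean of 50 this change did not pass (adjusted p = 0.0696, limma). Without parental replicate 1 it was 0.51. ASNS RPF values of 111.2 and 101.0 in parental cells and 127.0 and 132.6 in MDA-LM2 did not overlap, and the log2 RPF change of 0.29 ± 0.14 (SE) did not pass (adjusted p = 0.177, limma). TE lay lower in both MDA-LM2 replicates, at 0.889 and 0.854 against 1.39 and 0.972, with a log2 TE change of -0.41 ± 0.25 (SE, adjusted p = 0.907, limma).

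In the knockdown, ASNS RNA was 244 and 241 in sgControl and 399 and 438 in sgHNRNPC, a log2 difference of 0.78 ± 0.09 (SE) and 1.72-fold. Its RPF values were 25.3 and 16.7 in sgControl and 53.2 and 50.4 in sgHNRNPC, a log2 difference of 1.29 ± 0.24 (SE) and 2.45-fold. Both knockdown libraries lay above both controls for RNA, RPF and TE. The sgControl replicates spread in footprints. Leaving out their replicate 2 gave an RPF difference of 1.00, and leaving out their replicate 1 gave 1.58.

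SLC7A11 and SLC3A2 encode the subunits of the cystine-glutamate exchanger, with SLC3A2 (CD98) also the heavy chain of the leucine transporter SLC7A5. In the footprints of MDA-LM2 the subunits moved in opposite directions. SLC7A11, the light chain that carries cystine, had RPF values of 118.0 and 106.9 in parental cells and 76.4 and 71.5 in MDA-LM2. The groups did not overlap, and the log2 RPF change was -0.60 ± 0.15 (SE, adjusted p = 0.00605, limma), to 0.661 of the parental value. Without parental replicate 1 it was -0.53. SLC7A11 RNA overlapped between the lines, at 573 and 519 against 491 and 537, with a log2 RNA change of -0.08 ± 0.12 (SE, adjusted p = 0.660, limma) that was 0.09 with equal totals. The log2 TE change of -0.51 ± 0.19 (SE) did not pass (adjusted p = 0.890, limma), although TE was 0.206 in each parental replicate and 0.155 and 0.133 in MDA-LM2.

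SLC3A2 had RNA values of 1325 and 1264 in parental cells and 1837 and 1792 in MDA-LM2. The log2 RNA change was 0.49 ± 0.11 (SE, adjusted p = 0.0253, limma), and both MDA-LM2 replicates lay above both parental ones. The change was 0.52 without parental replicate 1 and 0.45 without parental replicate 2. SLC3A2 RPF values rose from 271 and 285 to 371 and 359, a log2 RPF change of 0.39 ± 0.10 (SE, adjusted p = 0.00801, limma). Without parental replicate 1 this RPF change was 0.35.

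In the knockdown, SLC7A11 was the only one of the 8 genes over the filter whose RNA lay lower. Its RNA was 845 and 822 in sgControl and 650.1 and 638 in sgHNRNPC, a log2 difference of -0.37 ± 0.06 (SE). Its RPF values were 22.4 and 25.1 against 11.3 and 12.5, a log2 difference of -0.94 ± 0.32 (SE). RNA, RPF and TE were all without overlap. SLC3A2 RNA was 430.2 and 418 in sgControl and 521 and 564 in sgHNRNPC, and its RPF values were 81.9 and 75.8 against 87.8 and 101.9.

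XPOT, the exportin that carries mature tRNAs out of the nucleus, passed no test in MDA-LM2, and its RNA in the knockdown is 1 of the values that chose the set. In MDA-LM2 its RNA values of 1375 and 1390 lay just above the parental 1286 and 1306, with a log2 RNA change of 0.09 ± 0.10 (SE, adjusted p = 0.572, limma). Its RPF values of 195.9 and 194.3 lay above the parental 171.5 and 184.5, and the log2 RPF change of 0.13 ± 0.12 (SE) did not pass (adjusted p = 0.521, limma). In the knockdown, XPOT RNA was 2241 and 2238 in sgControl and 3236 and 3176 in sgHNRNPC, a log2 difference of 0.52 ± 0.04 (SE). Its RPF values overlapped, at 49.1 and 53.4 against 48.4 and 61.1, with a log2 difference of 0.09 ± 0.20 (SE). TE was 0.0219 and 0.0238 in sgControl and 0.0150 and 0.0192 in sgHNRNPC, a log2 difference of -0.43 ± 0.17 (SE). Whether XPOT differed more in the knockdown than in MDA-LM2 was not tested.

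**Figure D2:**
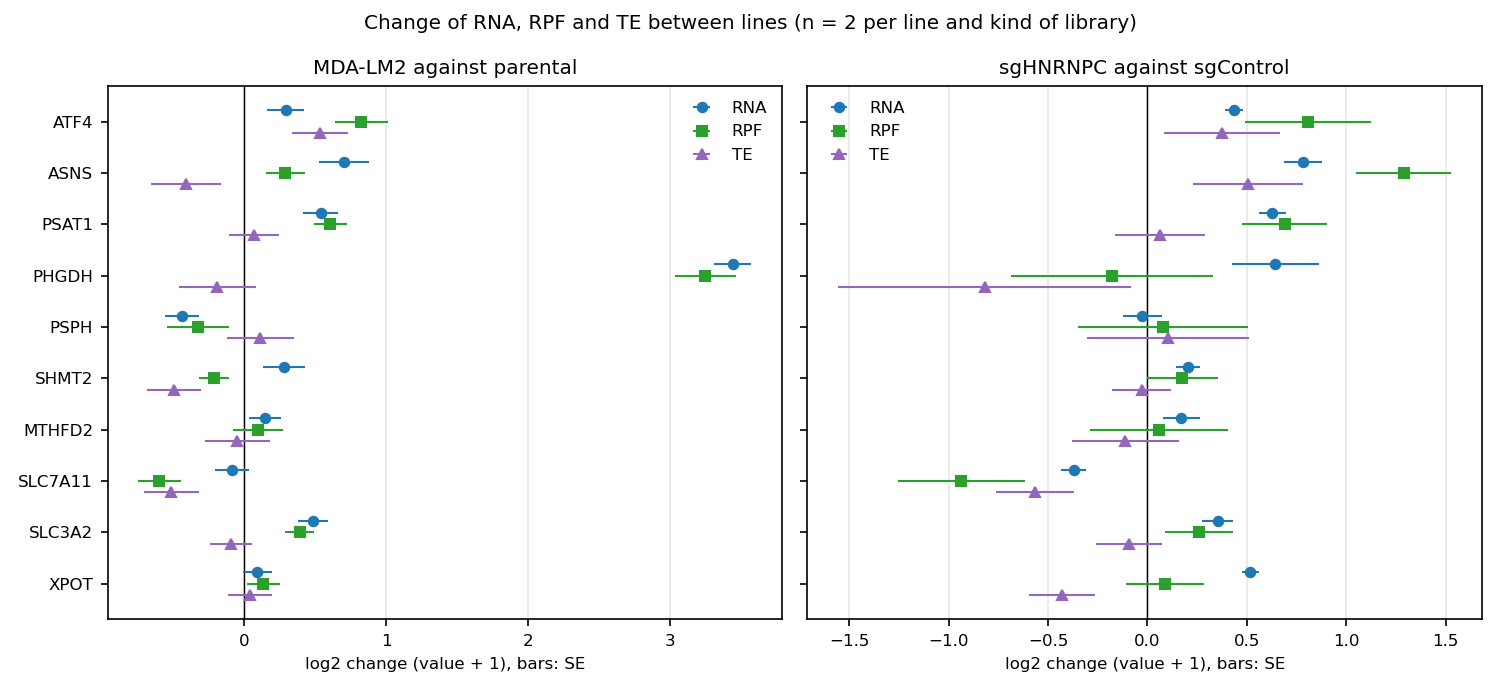
Log2 change of RNA, RPF and TE with its SE for the 10 genes, MDA-LM2 against parental (left) and sgHNRNPC against sgControl (right), from log2 of the value plus 1 with 2 replicates per line. PHGDH changed by 3.44 in RNA and 3.25 in RPF in MDA-LM2, and SLC7A11 had negative values of RNA, RPF and TE in both comparisons, the RNA one in MDA-LM2 within its SE of 0 and above 0 with equal totals.

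Counted over the set in MDA-LM2, 5 of 10 genes passed in RNA, 4 higher (ASNS, PSAT1, PHGDH and SLC3A2) and 1 lower (PSPH). Over all tested genes 15.2% passed, 5.80% higher and 9.44% lower. In RPF 5 of 10 passed, 4 higher (ATF4, PSAT1, PHGDH and SLC3A2) and 1 lower (SLC7A11), where 12.0% of all genes passed, 5.00% higher and 7.03% lower. In TE 0 of 10 passed and 0.0357% of all genes did, 3 by limma, with 455 at an unadjusted p under 0.05, 3 members among them (ATF4, SHMT2 and SLC7A11), and logistic regression called 1 member, SHMT2. The median log2 change of the 10 genes was 0.29 in RNA, 0.21 in RPF and -0.07 in TE, beside -0.02, -0.01 and 0.03 over all genes. The RNA count was lower when parental replicate 1 or 2 was left out, and was 3 with a minimum mean of 50, PHGDH among them. At that setting ASNS lost the call, and PSPH, with RPF values under 50 in every library, was not tested.

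In the knockdown, 7 of the 8 genes over the filter had RNA values above both controls in both replicates, and SLC7A11 had values below them. Over all 4283 genes 20.2% lay higher and 34.6% lower without overlap. The limma test called 16.0% of all genes in RNA, 4.72% higher and 11.3% lower, and 0% in TE, with 332 at an unadjusted p under 0.05. In RPF it called 1 gene (0.0233%), which was ASNS, by which the set was chosen. The median log2 differences of the 8 genes were 0.39 in RNA, 0.22 in RPF and -0.06 in TE, beside -0.04, 0.02 and 0.06 over all genes. The rule used this comparison, so nothing is read from these counts and medians.

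The order of the genes by TE level per kb was alike at the top in parental and MDA-LM2 cells. ASNS led with 1.65 ± 0.42 (SD, n = 2) in parental and 1.22 ± 0.03 (SD, n = 2) in MDA-LM2 cells, followed by SLC7A11 with 1.32 ± 0.0006 and 0.924 ± 0.102 (SD, n = 2). Both stood above the 90.9th percentile of the tested genes in every library of that table. SHMT2 and ATF4 closed the order with 0.138 and 0.0289 in parental and 0.0992 and 0.0423 in MDA-LM2 cells. These levels depend on annotated lengths, with an mRNA of 9645 bases for SLC7A11, and the mRNA ends used in these cells were not measured here. Without division by length, ASNS still led in parental cells at 1.18. SLC7A11, at a mean of 0.206, then lay below the means of PHGDH (0.230), PSAT1 (0.224) and SLC3A2 (0.215) and above those of the remaining members. The SLC7A11 replicates fell between those of PHGDH and between those of SLC3A2, so its order against these genes is not set. The overlaps below are those of the per-kb levels. In parental cells, the replicates of XPOT and PHGDH and of PHGDH and SLC3A2 overlapped, so that their order is not set. In MDA-LM2 this held for MTHFD2 and PSAT1, MTHFD2 and PSPH, PSAT1 and PSPH, and PHGDH and SLC3A2.

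The knockdown table gave another order. ASNS stood at the 44.7th and 70.1st percentiles of TE per kb in the sgControl replicates, SLC3A2 led with 0.218 ± 0.007 (SD, n = 2), and XPOT stood second from the end, at the 13.2nd and 15.2nd percentiles, where it stood at the 55.8th and 58.2nd in parental cells. RNA per kb of XPOT was at the 80.6th and 80.9th percentiles in sgControl and at the 67.4th and 68.0th in parental cells. Both sets of cells derive from MDA-MB-231. The tables were normalised separately and hold different sets of tested genes, so the levels are set side by side without a test.

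**Figure D3:**
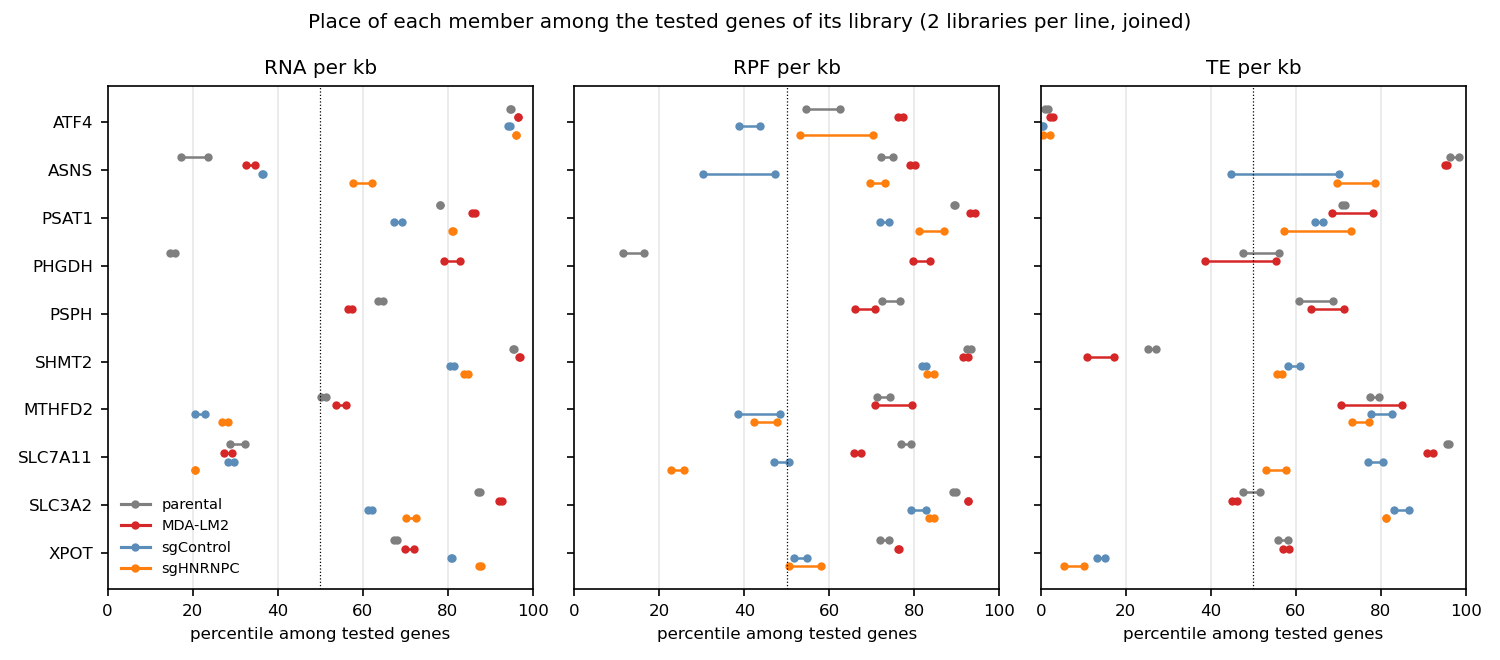
Percentile of each gene among the tested genes of the same library, for RNA per kb of mRNA, RPF per kb of coding sequence and TE per kb, with the 2 replicates of a line joined; PHGDH and PSPH were not tested in the knockdown table. ATF4 lay between the 94.3rd and 96.6th percentile in RNA and under the 2.8th in TE, and PHGDH moved from the 14.6th to 15.9th percentile of RNA in parental cells to the 79.0th to 83.0th in MDA-LM2.

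Genes were also ranked by likeness of their RNA pattern to that of ASNS and of XPOT, as Pearson r of log2 values centred within each table over the 8 RNA libraries, among 4280 genes tested in both tables. For ASNS the leading genes included SCAF4 (r = 0.981), CNIH1 (0.977), G2E3 (0.974) and a transcript without a matched symbol (ENST00000399982, 0.968), and of the set PSAT1 stood in place 14, SLC3A2 in 17, ATF4 in 55, XPOT in 86, MTHFD2 in 99 and SHMT2 in 407. For XPOT they were SLC4A1AP (0.980), C9orf78 (0.960), SLC1A5 (0.952), a glutamine transporter, RRP12 (0.950) and AARS1 (0.946), the alanyl-tRNA synthetase, with ATF4 in place 38, PSAT1 in 39, ASNS in 48, MTHFD2 in 104, SLC3A2 in 119 and SHMT2 in 260. SLC7A11 stood near the far end of both rankings, with r = -0.84 for ASNS and -0.94 for XPOT. These values describe 4 lines with 2 libraries each, which share their line and table, and the knockdown RNA of ASNS and XPOT among them is what chose the set.

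The rest of the pathway was described through 106 further genes in 7 groups. The groups were drawn up from general knowledge of ATF4 and of amino acid limitation, with earlier results of these data known. The shares below therefore describe the list. In MDA-LM2, 85 were tested, and 8 were higher and 4 lower in RNA (14.1%, beside 15.2% of all genes) while 6 were higher and 8 lower in RPF (16.5%, beside 12.0%). In the knockdown, 66 were tested, and 16 were higher and 5 lower in RNA (31.8%, beside 16.0%) while 0 passed in RPF by limma, 13 of them having an unadjusted p under 0.05. In TE 0 passed by limma in either comparison, with 3 in MDA-LM2 and 9 in the knockdown at an unadjusted p under 0.05, and logistic regression called IPO5 and MAT2A in MDA-LM2 and LARS1 in the knockdown. The median log2 RNA change was 0.10 in MDA-LM2, beside -0.02 over all genes, and 0.03 in the knockdown, beside -0.04.

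Among the sensors of the response and the partners of ATF4, MDA-LM2 differed in 2 of 11 genes. CEBPB, which dimerises with ATF4, rose by 0.84 ± 0.13 (SE) in RNA (adjusted p = 0.00816, limma) and by 0.74 ± 0.16 in RPF (adjusted p = 0.00174, limma). JUND, an AP-1 subunit, fell by 1.26 in RNA (SE 0.12, adjusted p = 0.00128, limma) and by 0.84 in RPF (SE 0.21, adjusted p = 0.00684, limma). In the knockdown, JUND RNA rose by 0.37 and that of the eIF2 kinase EIF2AK2 by 0.27, and that of the GCN2 activator GCN1 fell by 0.19 (adjusted p = 0.00402, 0.000418 and 0.0260, limma).

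The stress and feedback targets were mixed as well. In MDA-LM2, RNA of the angiogenic factor VEGFA rose by 0.73, that of the haem oxygenase HMOX1 fell by 1.15 and that of NDRG1 fell by 0.51 (adjusted p = 0.00945, 0.00408 and 0.0347, limma). HERPUD1, of endoplasmic reticulum protein degradation, rose by 0.71 in RPF (adjusted p = 0.0298, limma). In RPF, HMOX1 and NDRG1 fell by 1.09 and 0.48 (adjusted p = 0.00704 and 0.00321, limma). In the knockdown, RNA of VEGFA and HERPUD1 rose by 0.41 and 0.40, and that of NDRG1 fell by 0.24 (adjusted p = 0.00373, 0.0308 and 0.000173, limma).

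Among the other enzymes, ASS1, which joins citrulline and aspartate on the way to arginine, rose in MDA-LM2 from a mean RNA value of 64.7 to 143.0, a log2 change of 1.15 ± 0.19 (SE, adjusted p = 0.00949, limma). ALDH18A1, of proline synthesis, rose by 0.42 in RNA and 0.41 in RPF (adjusted p = 0.0425 and 0.0463, limma), and ASL, the next enzyme after ASS1, fell by 0.87 in RPF (adjusted p = 0.0214, limma). Of the folate enzymes, FPGS, which adds glutamates to folate, fell by 0.93 in RNA and 0.76 in RPF (adjusted p = 0.0232 and 0.00101, limma), and the cytosolic SHMT1 fell by 0.60 in RPF (adjusted p = 0.0306, limma). In the knockdown, 0 of the 9 tested synthesis enzymes passed in RNA by limma, 1 having an unadjusted p under 0.05.

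The amino acid transporters and the tRNA synthetases held most of the knockdown calls. Of 6 transporters, 3 were higher and 0 lower in RNA: SLC7A5, the leucine partner of SLC3A2, rose from a mean of 451 to 633, SLC1A5 from 655 to 843 and SLC38A1 from 838 to 1041. Of the 20 cytosolic aminoacyl-tRNA synthetases, which charge tRNAs with their amino acids, 7 were higher (AARS1, IARS1, YARS1, SARS1, WARS1, GARS1 and TARS1) and VARS1 was lower. The log2 RNA change was 0.44 ± 0.06 (SE) for AARS1 and 0.35 ± 0.05 for IARS1 (adjusted p = 4.02e-08 and 3.57e-09, limma), and the median of the 20 was 0.06. In MDA-LM2, 1 synthetase passed in RNA, NARS1 at 0.61 (adjusted p = 0.0390, limma), and the cationic amino acid transporters SLC7A2 and SLC7A1 rose by 0.70 and 0.54 (adjusted p = 0.0174 and 0.0202, limma). NARS1 and TARS1 rose in RPF by 0.45 and 0.32 (adjusted p = 0.0358 and 0.0261, limma), and the transporters SLC36A4 and SLC38A2 fell by 1.94 and 0.34 (adjusted p = 0.00534 and 0.0346, limma).

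The transport receptors related to XPOT showed no shared direction. In the knockdown, IPO7 RNA rose by 0.23, and that of XPO5, which exports precursor microRNAs, and of RAN, the GTPase of nuclear transport, fell by 0.35 and 0.14 (adjusted p = 1.53e-05, 0.00163 and 0.0235, limma). In MDA-LM2, XPO4 rose by 0.52 in RNA (adjusted p = 0.0409, limma) and IPO8 by 0.44 in RPF (adjusted p = 0.0457, limma).

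**Figure D4:**
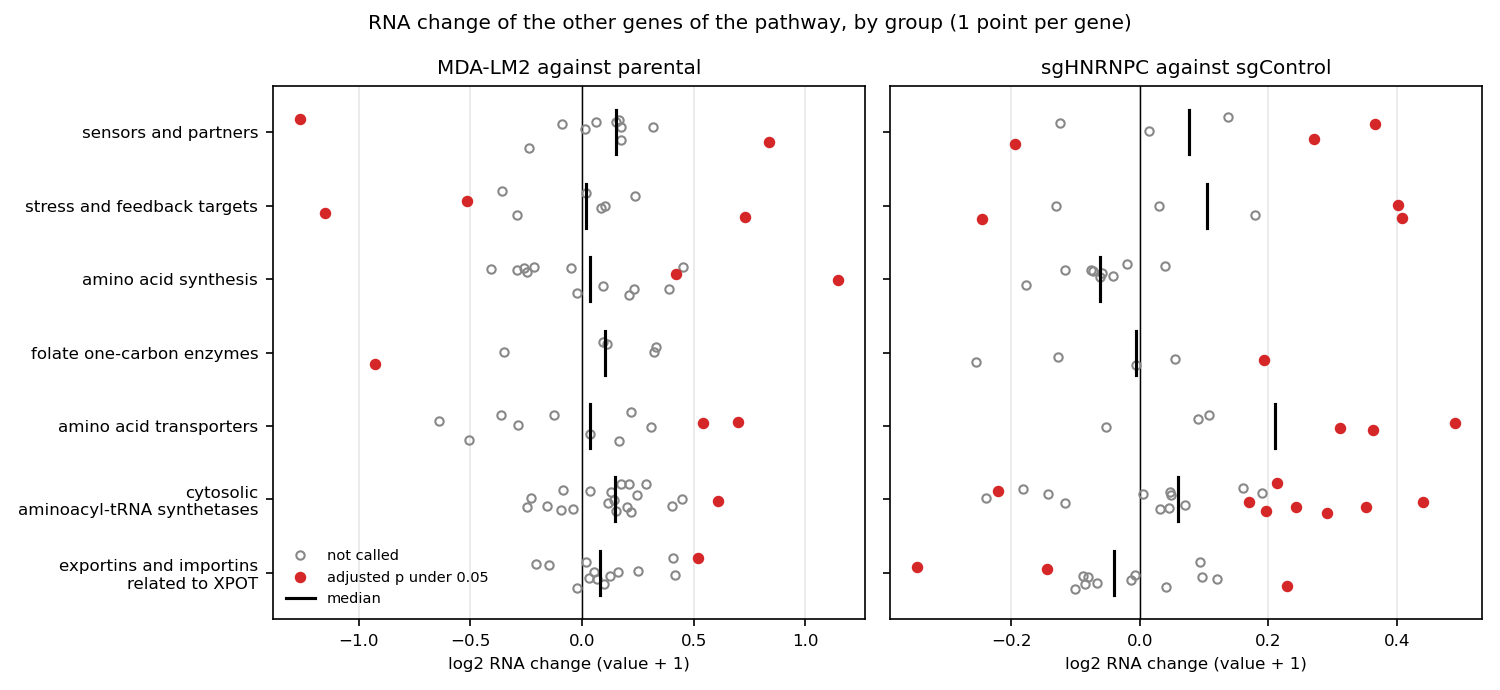
Log2 RNA change of the other genes of the pathway in 7 groups, 1 point per tested gene, with filled points at an adjusted p under 0.05 by limma and a bar at the median of each group, for MDA-LM2 against parental (left) and sgHNRNPC against sgControl (right). In the knockdown, 7 of 20 synthetases and 3 of 6 transporters were higher, and 1 synthetase and no transporter were lower.

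Promoters were matched for 82 of the 106 genes, and the letters TGATGNAA were present for 21 of them (25.6%), against 4.46% of all 27305 genes with a promoter. Many of these genes are known for such elements, so the share describes the list. The windows of 7 of them are shown above because their RNA was called higher in the knockdown, so they do not bear on whether the letters and the call go together. Of the set itself, ASNS and SLC3A2 carried the letters and passed as higher in RNA in MDA-LM2. Of the members whose windows lacked them, PSAT1 and PHGDH also passed, while ATF4, MTHFD2 and XPOT did not. In the knockdown both RNA replicates lay above both controls for all 7 members with a promoter entry, with or without the letters. This held for 20.2% of all tested genes. The set was chosen by this comparison, so nothing is read from that count.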

How the data were processed

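Each deposited value is a signal for 1 transcript, a read count that the authors normalised; footprint counts may also have been smoothed for stalling peaks, which is not stated for these files. Per the study's methods, the authors trimmed footprint reads with cutadapt 2.3, collapsed molecular identifiers, removed rRNA and tRNA reads and aligned with Bowtie2 2.3.5 to mRNAs, taking for every gene its isoform of longest coding sequence, then scaled counts by median-of-ratios size factors per kind of library. The submitters' processing notes name hg38; the annotation is not given in the sources used here. Transcripts were named through GENCODE version 44 (97.9% matched in each table).

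Groups came from the sample titles. The log2 was taken after adding 1. RNA, RPF and the TE interaction were tested with limma 3.58.1 in R 4.3.3, two-sided, with a trend, over the genes whose mean reached 10 in RNA and in RPF, and a call needed an adjusted p (Benjamini-Hochberg) under 0.05. Tables were made in Python 3.11.15 with pandas 2.3.3 and numpy 2.4.6, and figures with matplotlib 3.10.9. The tests were tested on simulated data. Fold changes are on the scale of the value plus 1, which understates those of low genes.

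The members and the lists were chosen with earlier results of these data known. From each group of the pathway list the text names up to 4 genes with the largest change among those called, and a few more where a count is spelled out. The methods call the replicates biological duplicates; with 2 per line, p-values measure the spread between these samples. Alternatives were an added value of 0.5 or 5, no filter or a minimum mean of 50, quantile normalisation, equal totals, a replicate term, TE within each lysate, robust moderation, logistic regression, leaving out each replicate and, chosen after seeing the data, limma voom on recovered RNA reads.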

Additional observations from a re-analysis of the deposited data

How the results depend on the processing

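With a minimum mean of 50, in RNA and in RPF, RNA calls fell from 1279 to 440 genes in MDA-LM2 (members 3) and from 684 to 228 in the knockdown. Fewer genes were tested at that setting, so a lower count is not only a loss of calls. PSPH, with RPF values under 50 in every MDA-LM2 and parental library, was not tested there. TE calls in MDA-LM2, 3 genes, were 0 without a filter, with equal totals, with quantile normalisation and within each lysate, 5 with the replicate block and 181 by logistic regression (members 1); logistic regression called 11 genes in the knockdown against 0. RPF calls in the knockdown, 1 gene, were 0 without a filter, 2 with equal totals and with robust moderation, 4 with quantile normalisation and 12 with the replicate block. In MDA-LM2 the block raised RNA calls from 1279 to 1775 genes and changed no count of members called. Same-numbered replicates deviated together with a correlation of 0.23 in MDA-LM2 and parental RNA and of -0.0038 to 0.0443 in the other comparisons of lines. RNA and RPF of the same number deviated together with a correlation of 0.14 in MDA-LM2 cells. The labels name no shared batch, so the main fits treated the numbers as names.

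Leaving out each replicate in turn gave 492 to 4235 genes (members 1 to 7) for RNA, 641 to 855 (members 3 to 5) for RPF and 0 to 7 for TE in MDA-LM2, and 371 to 569 for RNA and 0 to 41 (members 0 to 3) for RPF in the knockdown. The RNA count was 4235 without MDA-LM2 replicate 1, and the 41 came without sgHNRNPC replicate 1.

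Signs turned for uncalled changes in MDA-LM2. Equal totals shifted all genes by a median of 0.17 in RNA and -0.12 in TE. SLC7A11 RNA was then 0.0851, and TE was -0.0451 for PSAT1, -0.0018 for PSPH and -0.0750 for XPOT (-0.0047 with quantile normalisation). Without 1 replicate each, MTHFD2 RPF ranged from -0.1147 to 0.3059, and TE from -0.1124 to 0.2511 for PSAT1, from -0.4402 to 0.0593 for PHGDH, from -0.0410 to 0.2679 for PSPH, from -0.3412 to 0.2404 for MTHFD2 and from -0.0016 to 0.0806 for XPOT. Over single members and settings, sign and call held in 354 of 387 cases in MDA-LM2, 13 lost and 7 gained the call, and in the knockdown 282 of 297 moved by less than the replicate spread.

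The planned count-model tests on recovered reads were not run. The lowest RNA value of a library was 5 or 6 reads, and 1 read could not be checked as its step. In MDA-LM2, limma voom on the recovered reads called 5 members in RNA, as many as limma on log2 values. Over all genes it called 1269 against 1279. The RPF depth is unknown and sets no interval.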
